A study of Homo sapiens with 3 samples.

Results

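The miR-30 family was examined through the 5 probes named hsa-miR-30a-5p, hsa-miR-30b-5p, hsa-miR-30c-5p, hsa-miR-30d-5p and hsa-miR-30e-5p, chosen by name among the 2019 human microRNA probes of the array (the prefix hsa, for human, is left out from here on). The 6 probes for the opposite arms of the same hairpins, the 3p or passenger arms, were described beside them. MicroRNAs had been measured on 1-colour (Cy5) arrays in MCF12A, an immortalized, non-tumorigenic line of human mammary epithelium grown as a monolayer in medium with 2.5% horse serum, epidermal growth factor, hydrocortisone, insulin and cholera toxin. There were 3 groups of 1 array each: cells kept for 4 weeks with acetaldehyde, cells kept for 4 weeks with ethanol, and control cells with no exposure. The doses are 1 mM acetaldehyde and 2.5 mM ethanol in the sample characteristics, but 1% and 2.5% in the treatment protocol. A clone picked from soft agar is also mentioned in that protocol, and the labels tie it to none of the 3 arrays. With 1 array per group there is no replicate and no test, and the errors below are SDs over the 4 spots of a probe, which cover printing and reading of an array only. Both exposures were set against the same control array. Dose and compound cannot be told apart between the exposures.

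A microRNA is cut from a hairpin transcript, and one arm, the guide, is loaded into an Argonaute protein. Bases 2 to 8 of the guide, the seed, pair with messenger RNAs, which are then repressed. Members of the miR-30 family share their seed. In breast tumour cells the family is known to restrain self-renewal in part through ITGB3, an integrin subunit, and in epithelial cells it is known to repress SNAI1, a transcription factor of epithelial-mesenchymal transition. miR-30a also represses BECN1, which acts in autophagy.

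The guides are shown first because their likeness limits how far the probes can be read as separate measurements. Names of 3 of the 5 members and 4 of the 6 passenger arms matched the RefSeq microRNA sequences (GRCh38.p14), and these are 3 of the guides, 5′ to 3′, with the seed in capitals:
miR-30a-5p: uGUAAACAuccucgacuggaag
miR-30e-5p: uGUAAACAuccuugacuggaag
miR-30c-5p: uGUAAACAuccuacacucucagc
The first 11 bases were the same in all 5 targets on the array, and no other of the 2019 probes had this seed. Beyond base 11 the members fell into a pair of sequence subgroups. miR-30a-5p, miR-30d-5p and miR-30e-5p were 1 or 2 edits apart, with C13U, counted from the 5′ end, as the change from miR-30a-5p to miR-30e-5p. miR-30b-5p and miR-30c-5p were 3 edits apart, and members of different subgroups were 6 to 8 edits apart. The closest target outside the family was 8 edits away. Probes of 1 subgroup may therefore read each other's microRNA, and members are not independent of each other. GC content was lowest in miR-30b-5p and miR-30e-5p, at 40.9%, and exceeded the median of all probes in none of the 5.

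Sequence subgroup and place in the genome do not run together. MIR30E (chr1:40754355-40754446, plus strand) and MIR30C1 (chr1:40757284-40757372, plus strand) are 2837 bases apart, both inside the span of NFYC, which encodes a subunit of the transcription factor NF-Y. MIR30A (chr6:71403551-71403621, minus strand) and MIR30C2 (chr6:71376960-71377031, minus strand) are 26519 bases apart, and no other gene of the RefSeq table spans either. MIR30B and MIR30D are neighbours on another chromosome, and their sequences are not shown. miR-30c-5p has the same sequence from both of its hairpins, so its probe cannot separate them. Only the passenger arms of miR-30a and miR-30e were detected, as defined below, on both the acetaldehyde and control arrays. Their hairpins are shown for that reason, with the guide first and the passenger arm second in capitals:
MIR30A: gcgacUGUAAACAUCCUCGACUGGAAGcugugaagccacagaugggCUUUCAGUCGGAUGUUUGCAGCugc
MIR30E: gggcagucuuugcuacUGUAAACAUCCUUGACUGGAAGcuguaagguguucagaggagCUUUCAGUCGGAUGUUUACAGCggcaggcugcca

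All 6 epithelial and basal mammary markers on the array were detected on all 3 arrays. Detection was judged against the 1368 empty spots: the mean over the spots of a probe, and no fewer than 50% of those spots singly, had to lie 3 SDs of the empty spots above their median. This level was 98.8 for acetaldehyde, 243 for ethanol and 146 for control, and 1430, 347 and 775 probes passed it in the same order. Of 5 mesenchymal markers 4, 2 and 2 were detected in that order, with summed signals above the empty spots of 584, 232 and 502, and of 5 blood markers 2, 0 and 0, with 231, 0 and 30.6. Of 3 muscle markers 2, 1 and 1 were detected, and of 2 neural markers 1, 0 and 0, while the liver marker miR-122-5p was detected on none. The endothelial marker miR-126-3p was detected on all 3 arrays, at normalized intensities of 732, 440 and 385. What these markers contribute to the family's values was not tested.

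All 5 members were detected on all 3 arrays, far above the empty spots, and before any normalization all 5 were brightest on the acetaldehyde array and dimmest on the ethanol array. The median over all microRNA probes had the same order, but most of them were not detected on the ethanol and control arrays. After background correction and before normalization, the median log2 value of the 2019 microRNA probes was 7.12 with acetaldehyde, 6.67 with ethanol and 6.81 in control cells. Summed microRNA signal above the empty spots was instead highest in control cells, at 877255, beside 865942 with acetaldehyde and 703875 with ethanol. The 5S ribosomal RNA probes were also brightest on the control array, with median log2 values of 14.44, 14.40 and 14.61 for acetaldehyde, ethanol and control. miR-30a-5p had a mean spot intensity of 5283 ± 292 with acetaldehyde, 3201 ± 88.7 with ethanol and 4346 ± 237 in control cells (SD, n = 4 spots). miR-30d-5p had 4624 ± 241 with acetaldehyde, 2861 ± 85.1 with ethanol and 3671 ± 73.3 in control cells. miR-30e-5p, the dimmest member, had 2281 ± 116 with acetaldehyde, 1152 ± 7.60 with ethanol and 1621 ± 68.2 in control cells. In this subgroup no spot of any array overlapped the spots of another array for the same probe. miR-30b-5p, the brightest member, had 8238 ± 619 with acetaldehyde, 4101 ± 95.0 with ethanol and 6593 ± 53.7 in control cells. miR-30c-5p had 5769 ± 465 with acetaldehyde, 3196 ± 94.0 with ethanol and 5120 ± 226 in control cells. Of all 5 members, spots overlapped between arrays for miR-30c-5p alone, whose lowest acetaldehyde spot (5192) lay below its highest control spot (5347). The share of all probes whose spots part between arrays in this way was not computed, so the parting is not shown to be particular to the family. The spots of the second print block were brighter than those of the first on the acetaldehyde array for each member, and its spot SDs, at 5.09% to 8.07% of the mean, were wider than on the ethanol array (0.660% to 2.97%). On the control array they were 0.814% to 5.45%. None of the members' spots was dark, that is, under 50% of the median net signal of its probe.

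**Figure D1:**
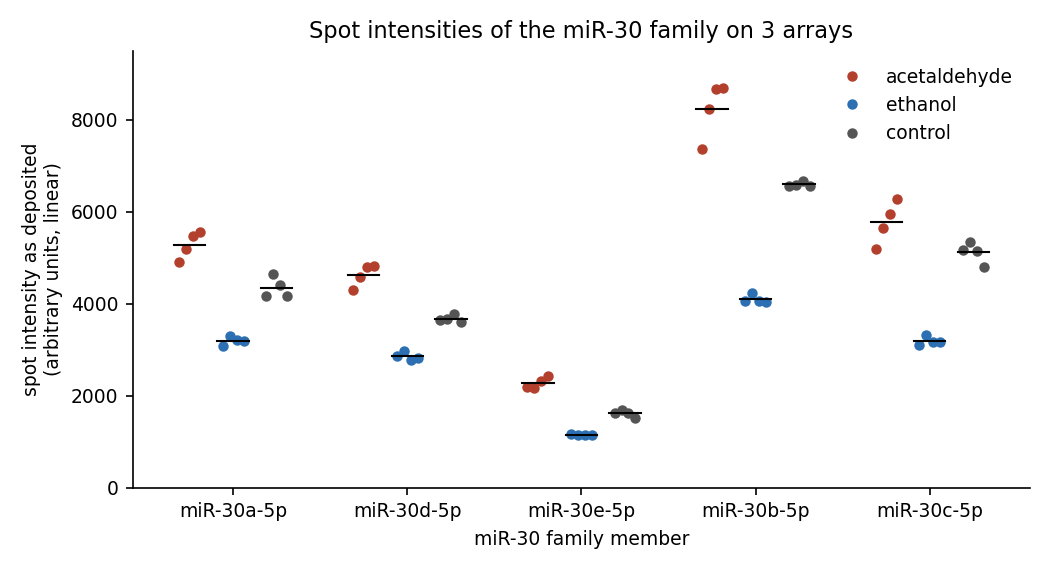
Spot intensities of the 5 miR-30 family members as deposited (y axis, arbitrary linear units) on the acetaldehyde, ethanol and control arrays. Points are the 4 spots of a probe on 1 array and the black line is their mean; for each member the acetaldehyde spots are the brightest on average and the ethanol spots the dimmest, as for miR-30b-5p with means of 8238, 4101 and 6593 on the acetaldehyde, ethanol and control arrays.

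As a share of all microRNA signal above the empty spots, the 5 members together held 2.99% with acetaldehyde, 1.96% with ethanol and 2.37% in control cells. This share does not depend on a constant scale between arrays, but a few bright probes can move it. The arrays are of bulk RNA, so fewer cells that hold a microRNA and less of it per cell cannot be told apart. Ranked by normalized intensity among the 2019 probes, miR-30b-5p stood highest of the family everywhere, at rank 23 with acetaldehyde, 58 with ethanol and 39 in control cells. miR-30e-5p stood lowest, at rank 98, 134 and 134 in the same order. Between them, miR-30c-5p lay at ranks 33, 64 and 53, miR-30a-5p at 37, 62 and 62, and miR-30d-5p at 47, 77 and 72. miR-30c-5p and miR-30a-5p thus changed places on the ethanol array, where their spot means differed by less than their spot SDs. Ranks order signals and not amounts, since probes bind with unequal strength.

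With acetaldehyde, every member was higher than on the control array after quantile normalization over the microRNA probes, by 1.43-fold to 1.73-fold, and every member was lower when the arrays were scaled on spike calibration probes instead. On the log2 scale miR-30e-5p differed from control by 0.79 ± 0.13 (SD, n = 4 spot positions), miR-30a-5p by 0.74 ± 0.11 and miR-30d-5p by 0.65 ± 0.08. miR-30c-5p differed by 0.55 ± 0.17 and miR-30b-5p by 0.52 ± 0.11. Neighbours in this order lay no further apart than the wider of their spot SDs. Of the 5 members, 3 (miR-30a-5p, miR-30d-5p and miR-30e-5p) were at least 1.5-fold higher, against 7.75% of the 774 probes detected on both arrays and 16.1% of the 242 that also reached an intensity of 500 on 1 of them. All 5 were higher at all 4 spot positions, against 26.9% of the 774 and 31.0% of the 242. The family's median difference was 0.65, with a range of 0.52 to 0.79, and the median over the 774 probes was -0.07 and over the 242 bright ones -0.02.

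The normalized intensities behind these differences were 6260.4 on the acetaldehyde array against 3758 on the control array for miR-30a-5p, and 2283 against 1318 for miR-30e-5p. For miR-30d-5p they were 5098 on the acetaldehyde array and 3253 on the control array. They were 8379.6 and 5864 for miR-30b-5p, and 6749.6 and 4623 for miR-30c-5p, acetaldehyde before control. Without normalization the family median was 0.32 and no member reached 1.5-fold, with miR-30c-5p the lowest at 0.18 and miR-30e-5p the highest at 0.51. Scaling on the 30 detected spike calibration probes gave a family median of -0.37 by the arrays' spike medians and -0.32 by the median spike difference, because 28 of the 30 spikes were brighter on the acetaldehyde array, by a median of 0.64.

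**Figure D2:**
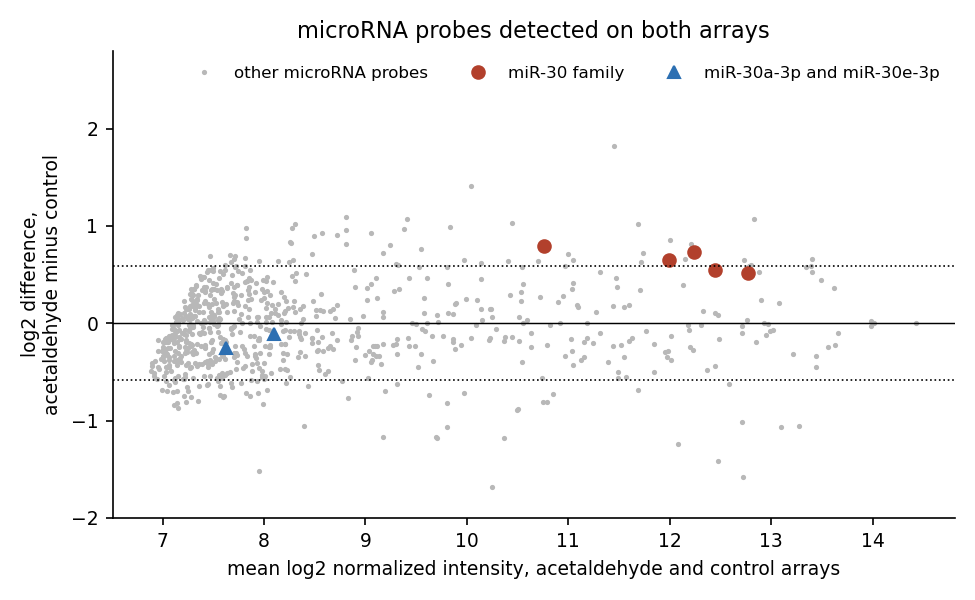
Log2 difference, acetaldehyde minus control (y axis), against the mean log2 normalized intensity of the acetaldehyde and control arrays (x axis) for the 774 microRNA probes detected on both, with dotted lines at 1.5-fold. The 5 family members (red circles) lie between 0.52 and 0.79, and the passenger arms miR-30a-3p and miR-30e-3p (blue triangles) lie at -0.26 and -0.11 among the dim probes.

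With ethanol the subgroups parted. miR-30b-5p and miR-30c-5p were lower than on the control array, by 1.35-fold and 1.28-fold, while miR-30a-5p and miR-30e-5p kept the very rank they had on the control array and so the same normalized value. The log2 differences were -0.44 ± 0.04 for miR-30b-5p and -0.35 ± 0.06 for miR-30c-5p (SD, n = 4 spot positions). For miR-30d-5p the difference was -0.13 ± 0.06, and for miR-30a-5p and miR-30e-5p it was 0 ± 0.05 and 0 ± 0.06. Normalized intensities of miR-30b-5p were 4329 on the ethanol array and 5864 on the control array, and those of miR-30c-5p were 3623 and 4623 in that order. No member was 1.5-fold higher, against 8.65% of the 347 probes detected on both arrays, and no member was 1.5-fold lower, against 3.46%. Of the 5 members, 3 (miR-30b-5p, miR-30c-5p and miR-30d-5p) were lower at all 4 spot positions, against 31.1% of the 347 and 39.0% of the 236 bright ones. The family median was -0.13, beside 0 over the 347 and -0.04 over the 236.

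The sign of the family median with ethanol depends on the scaling. It was -0.50 without normalization and -0.29 when scaled on the 5S ribosomal RNA probes, and 0.17 when scaled on the arrays' spike medians but -0.42 by the median spike difference. miR-30b-5p and miR-30c-5p were below control in all of these settings, down to -0.69 and -0.68 without normalization and up to -0.02 and -0.01 with the spike medians. The 0 of miR-30a-5p and miR-30e-5p belongs to quantile normalization. Without normalization they stood at -0.44 and -0.50, and on the 5S probes at -0.23 and -0.29. With the spike medians they stood at 0.23 and 0.17, and by the median spike difference at -0.36 and -0.42.

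The gap between the subgroups does not depend on a constant scale between arrays. The mean difference of miR-30b-5p and miR-30c-5p lay below that of miR-30a-5p, miR-30d-5p and miR-30e-5p by a log2 difference of -0.35 ± 0.04 for ethanol minus control, with single spot positions from -0.39 to -0.30. For acetaldehyde minus control the gap was -0.19 ± 0.06, from -0.29 to -0.15. Of 21 other settings, the 3 on detection cannot move the gap, and the 5 that leave quantile normalization out or replace it by a constant per array share 1 value, so 14 distinct values remain. They ranged from -0.39 to -0.25 with ethanol and from -0.26 to -0.13 with acetaldehyde, all below 0. The comparisons share the control array, so a control value of either subgroup enters both gaps. Between the exposures the gap had the other sign, at 0.16 ± 0.04 for acetaldehyde minus ethanol (0.08 to 0.19 over these settings). On the control array miR-30b-5p and miR-30c-5p were also the brighter members, at ranks 39 and 53. There miR-30a-5p, miR-30d-5p and miR-30e-5p stood at 62, 72 and 134. Whether the gap follows brightness was not tested, and a scale that varies with brightness need not cancel in it. The subgroups rest on sequence, but this contrast was chosen after its values were seen, and how many other probes part by as much was not computed.

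**Figure D3:**
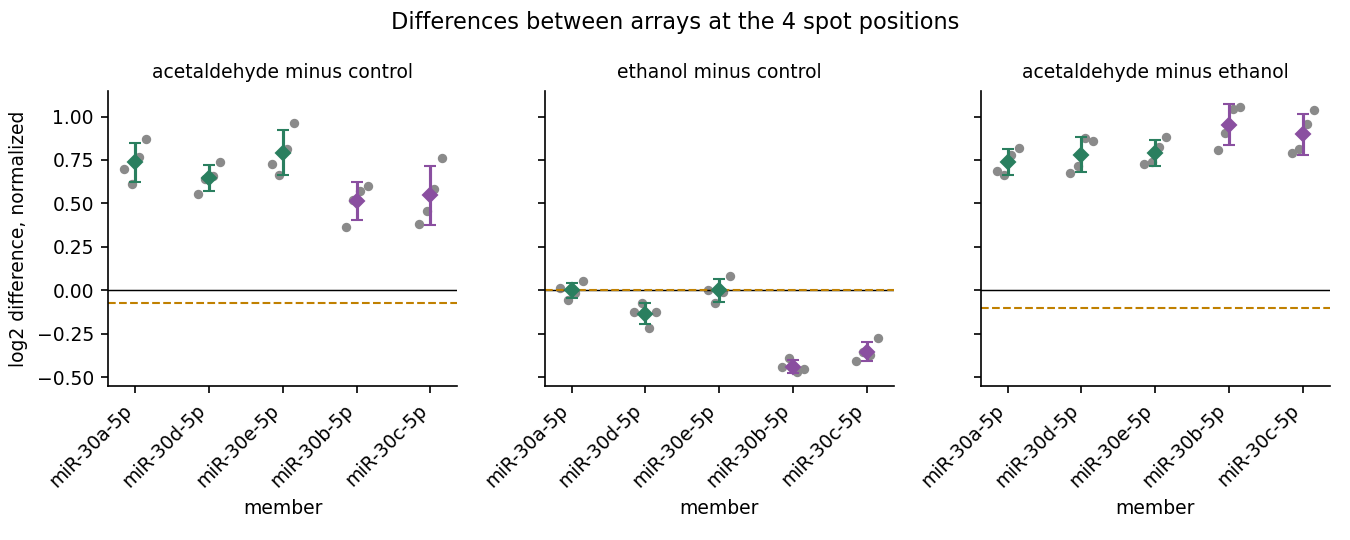
Log2 differences of normalized intensity (y axis) for the 5 members in the 3 comparisons, with grey points for the 4 spot positions, and diamonds and bars for their mean and SD (green for miR-30a-5p, miR-30d-5p and miR-30e-5p, purple for miR-30b-5p and miR-30c-5p). The dashed line is the median of all probes detected on both arrays; the purple diamonds lie at -0.44 and -0.35 for ethanol minus control, below the green ones at -0.13 to 0.

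Set against the ethanol array, all 5 members were at least 1.5-fold higher on the acetaldehyde array after quantile normalization, and doses differed along with compounds. Of the 347 probes detected on both, 14.7% were as much higher, and of the 240 bright ones 20.0%. miR-30b-5p led at 1.94-fold (log2 difference 0.95 ± 0.12), followed by miR-30c-5p at 1.86-fold (0.90 ± 0.12). miR-30e-5p (0.79 ± 0.07), miR-30d-5p (0.78 ± 0.10) and miR-30a-5p (0.74 ± 0.07) lay within each other's spot SDs. All 5 were higher at all 4 positions, against 31.4% of the 347 and 42.5% of the 240. The family median was 0.79, beside -0.10 over the 347 and 0.03 over the 240. It lay between 0.72 and 0.88 in the alternatives that did not use spikes. With the spikes it was -0.50 by the array medians and 0.13 by the median spike difference.

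The passenger arms, which are mostly degraded once the guide is loaded, were dim. On the acetaldehyde array, where the level to exceed was lowest, all 6 were called detected, but 4 of them (miR-30b-3p, miR-30c-1-3p, miR-30c-2-3p and miR-30d-3p) were detected on neither of the other arrays and had means of 106 to 119 on the acetaldehyde array against a level of 98.8. Their signals gave no fold between arrays. miR-30a-3p was detected on all 3 arrays, at mean spot intensities of 215 ± 22.9 with acetaldehyde, 255 ± 11.1 with ethanol and 232 ± 7.17 in control cells (SD, n = 4 spots). miR-30e-3p had 298 ± 15.9 on the acetaldehyde array, 229 ± 57.1 on the ethanol array, where it was not well above background, and 317 ± 11.8 on the control array. These values are before any subtraction of the empty spots, whose medians were 65.8, 148 and 106 on the acetaldehyde, ethanol and control arrays. Above the empty spots, miR-30a-3p had 149, 107 and 127 and miR-30e-3p 232, 80.9 and 211 in the same order.

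With acetaldehyde neither of these passenger arms was higher than control after quantile normalization, as the guides of their hairpins were, but their median turned to 0.19 with scaling on the 5S probes and 0.33 with scaling on detected microRNAs. The log2 difference was -0.26 ± 0.15 for miR-30a-3p and -0.11 ± 0.12 for miR-30e-3p, and each of the 4 positions was lower for both, which held for 37.5% of the 774 probes. Their signals above the empty spots were instead higher with acetaldehyde than in control cells. These were 149 against 127 for miR-30a-3p and 232 against 211 for miR-30e-3p. Without normalization both were near 0, at 0.02 and 0.01, where their guides stood at 0.29 and 0.51. Normexp correction with an offset shrinks differences of dim probes, so arms cannot be compared in size. With ethanol miR-30a-3p stood 0.43 ± 0.08 above control after quantile normalization and 0.14 above it without normalization, but its signal above the empty spots was lower with ethanol (107) than in control cells (127). Only 3 of its 4 ethanol spots exceeded the detection level, and it was not detected on the ethanol array when 5 SDs were asked for. miR-30e-3p was detected on the control array and not on the ethanol array. Its log2 difference, ethanol minus control, was -0.21 ± 0.41 with 1 of the 4 positions higher, so no fold is given.

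let-7 guides restrain growth genes such as HMGA2. For acetaldehyde minus control their median was -1.07 over 9 members, from -1.58 to -0.02, beside -0.07 over the 774 probes detected on both arrays. The miR-29 family, which represses collagens and DNA methyltransferases, had 3 members with a median of 0.36, and miR-29c-3p, at 0.81, lay above every miR-30 member. In the miR-26 family, which represses EZH2, miR-26a-5p stood at 0.59 and miR-26b-5p at 0.12. For ethanol minus control the medians were -0.02 for let-7, 0 for miR-29 and -0.18 for miR-26, beside -0.13 for miR-30. let-7f-5p, the highest let-7 value in both comparisons with control (-0.02 and 0.99), had a dark spot. With no replicates, whether these families differ from miR-30 was not tested.

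The probes closest to the family in pattern were found among 242 others that were detected on all 3 arrays and bright on 1, by the distance of their pair of differences from control to the family medians. The 8 nearest, at distances of 0.06 to 0.12 in log2 units, were miR-107, miR-3607-3p, miR-17-5p, miR-26a-5p, miR-103a-3p, miR-425-5p, miR-141-3p and miR-148a-3p. None has the miR-30 seed, and none had a dark spot. miR-107 stood at 0.63 for acetaldehyde minus control and -0.07 for ethanol minus control, and miR-103a-3p, which shares its seed family, at 0.73 and -0.12. miR-141-3p, of the epithelial miR-200 family, stood at 0.71 and -0.22, and miR-17-5p, of the MYC-induced miR-17/92 cluster, at 0.59 and -0.17. Of the members themselves, miR-30d-5p lay at a distance of 0 because it is the family median in both comparisons. The others lay at 0.16 (miR-30a-5p), 0.20 (miR-30e-5p), 0.24 (miR-30c-5p) and 0.33 (miR-30b-5p). All 8 of these probes were thus nearer to the family medians than every member except miR-30d-5p. Likeness over 3 arrays that share a control is a weak measure.

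**Figure D4:**
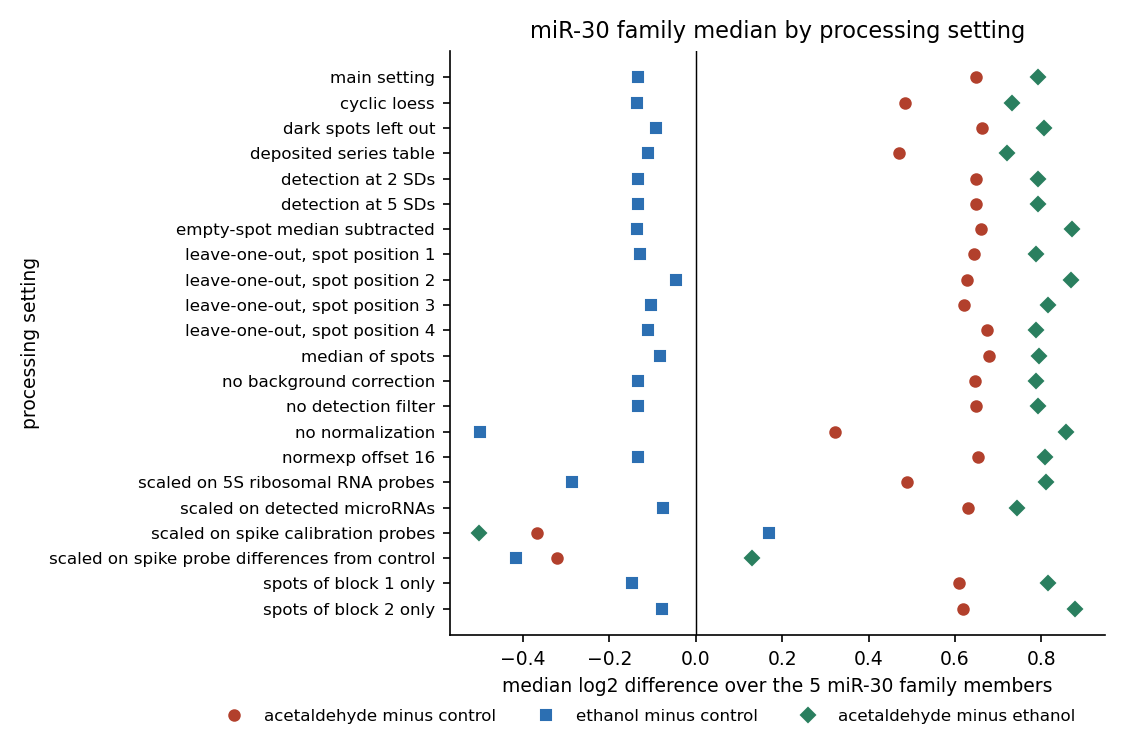
Family median of the log2 difference (x axis) under the main setting and 21 other processing settings (y axis) for acetaldehyde minus control, ethanol minus control and acetaldehyde minus ethanol. The median for acetaldehyde minus control stays between 0.32 and 0.68 except with the spike scalings, where it is -0.37 and -0.32.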

How the data were processed

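The deposited files of the 3 arrays held 1 median intensity a spot, per the file headers, and no column of local background. Empty spots held positive values, and no header says whether anything had been subtracted. Per the labels' protocols, 2 µg of total RNA was tailed with poly(A), tagged and stained with Cy5. The authors also deposited normalized linear intensity values for the whole series, which served as an alternative. For their normalization, the scanner and the image software, the sources used here give no name.

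Here limma 3.58.1 (R 4.3.3) applied the normexp background correction to all spots together, with an offset of 50. Values were taken to log2, the 4 spots were averaged and the 2019 microRNA probes quantile normalized. Tables were made with pandas 2.3.3 and NumPy 2.4.6 in Python 3.11.15. The procedure was run on spots simulated from the control array, with known changes but no difference in signal scale between arrays. That run therefore cannot decide between the scalings. With 1 array per group, differences are described by size, with a call at 1.5-fold and no test. Depth does not apply to arrays; their number limits the precision. Alternatives covered background, scaling, spot summary, dark spots, spot positions, detection level and the deposited table.

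Named microRNAs were the 5 members, the 6 passenger arms, any probe with the family's seed, and the 8 nearest in pattern, with let-7, miR-26 and miR-29 for comparison. A few markers and the highest or lowest value of a comparison family were named outside that rule, after their values were seen. Members and lists were chosen with earlier results of these data known.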

Additional observations from a re-analysis of the deposited data

How the results depend on the processing

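No paired analysis was possible because each group has 1 array. The number of arrays and, for the passenger arms, signals close to the empty spots limit what can be read. Of 21 alternatives, the spike scalings were added after seeing the data. The family median for acetaldehyde minus control moved by more than its spot SD with cyclic loess (0.48, 1 member at least 1.5-fold higher), the deposited table (0.47, 1 member), scaling on 5S probes (0.49, 1 member) and no normalization (0.32, 0 members). With the spike scalings it was -0.37 and -0.32, with 0 members. For acetaldehyde minus ethanol it was -0.50 by spike medians and 0.13 by spike differences (0 members each), 0.88 with block 2 only, and the deposited table left 3 members at 1.5-fold. For ethanol minus control it was -0.50 without normalization, -0.29 on 5S probes, 0.17 by spike medians and -0.42 by spike differences. Leaving out single spot positions gave 0.62 to 0.67 for acetaldehyde minus control, -0.13 to -0.046 for ethanol minus control and 0.79 to 0.87 for acetaldehyde minus ethanol. Of 460 values of single members and arms and of the subgroup gap, 12 that had stood at 1.5-fold or more changed sign, all with the spike scalings, and 121 others moved by more than their spot SD.

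The changes of sign among values of 1.5-fold or more for acetaldehyde minus control, by spike medians and then spike differences, were -0.40 and -0.36 for miR-30a-5p, -0.35 and -0.30 for miR-30d-5p and -0.18 and -0.13 for miR-30e-5p. miR-30b-5p (-0.37 and -0.32) and miR-30c-5p (-0.51 and -0.47), which had stood below 1.5-fold, changed sign too. For acetaldehyde minus ethanol by spike medians they were -0.63 for miR-30a-5p, -0.35 for miR-30b-5p, -0.50 for miR-30c-5p, -0.66 for miR-30d-5p and -0.35 for miR-30e-5p, and -0.026 for miR-30d-5p by spike differences. The cause was not tested. The passenger arms rest on 2 detected probes for acetaldehyde minus control and on 1 for each other comparison. Their median for acetaldehyde minus control (-0.19) became -0.56 with the empty-spot median subtracted, 0.019 without normalization, 0.19 on 5S probes, 0.33 on detected microRNAs, and -0.67 and -0.63 with the spike scalings. For ethanol minus control (0.43) it became 0.73 with the deposited table, 0.11 with detection at 2 SDs, 0.87 with the empty-spot median subtracted, 0.17 with no detection filter, 0.14 without normalization, 0.56 on detected microRNAs, and 0.81 and 0.22 with the spike scalings. For acetaldehyde minus ethanol (-0.69) it became -1.005 with the deposited table, -0.30 with detection at 2 SDs, -1.78 with the empty-spot median subtracted, -0.19 with no detection filter, -0.11 without normalization, -0.82 with an offset of 16, -0.16 on 5S probes, -0.23 on detected microRNAs, and -1.47 and -0.84 with the spike scalings.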
